A study of Homo sapiens with 8 samples.

Results

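The cytosolic heat-shock chaperones and the HSP90 cochaperone p23 were followed at the level of ribosome footprints in IMR32 cells. The genes were HSPA8, HSPA1A, HSPA1B, HSP90AA1, HSP90AB1, HSPH1, DNAJB1, DNAJA1, PTGES3 and PTGES3P1, or 10 of the 60651 rows of the table, found by symbol. The group was chosen by gene family with the TPM of these same CR31B and DMSO libraries in view, and PTGES3P1 was included for its large decrease between them. Values under treatment are therefore given as a description, with no p-value for a member. How many passed the threshold of the fit over all genes is stated beside the share of all genes that did, and nothing is read from it. IMR32 is an established human neuroblastoma line with amplified MYCN, labelled wild type. Cells had received CR31B, a silvestrol analog of the rocaglate class, or the solvent DMSO for 6 h, with 4 libraries per group, and all cells were given the elongation blocker cycloheximide before harvest. The labels call the replicates biological, without saying whether a number stands for a separate culture or day.

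HSP70 proteins bind exposed hydrophobic stretches of unfolded proteins in cycles of ATP hydrolysis. J-domain proteins (DNAJA1, DNAJB1) start each cycle, and HSP110 (HSPH1) exchanges the nucleotide that ends it. HSP90 dimers take over partly folded clients such as kinases and steroid receptors, and p23 (PTGES3) steadies their closed, ATP-bound form. Heat shock factor 1 (HSF1) drives transcription of many of these genes through heat-shock elements, arrays of inverted GAA units, and tumour cells often keep the chaperones abundant. Rocaglates clamp the helicase eIF4A onto purine-rich RNA.

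Ribosome profiling sequences the mRNA fragments that translating ribosomes protect, here selected at 28 to 30 nt. Values are TPM, in which reads are divided by transcript length and each library is brought to the same total. A fall or rise is therefore relative to the rest of the library, and a change common to all genes cannot be seen. All libraries hold footprints, so a lower value cannot be split into less mRNA or less translation of it. The table holds no read totals, so the depth behind a value is not known here. Protein-coding genes took 51.8% to 61.3% of TPM per library, the highest share in CR31B replicate 1. Of 10 markers of sympathetic neuroblasts, 9 were at 1 TPM or more in every library (summed level 699.7 to 798 TPM in CR31B, 649 to 826 TPM in DMSO), while TH ranged from 0.35 to 1.19 TPM. Of 5 fibroblast markers 1, COL1A1, reached 1 TPM in every library. None of 4 glial markers did, and the 4 blood markers were under 1 TPM throughout.

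A short footprint can be assigned to a gene only where its sequence differs from that of other genes. PTGES3P1 is a processed pseudogene, a reverse-transcribed copy of the PTGES3 mRNA, annotated on GRCh38 at chr1:89104285-89104767 (minus strand) as a single exon of 483 nt. PTGES3 itself lies at chr12:56663341-56688408 (minus strand). The copy has the length of the PTGES3 coding sequence, start to stop codon, and differs from it at 8 positions (98.3% identity). Counted from the A of the start codon, with the PTGES3 base first, they are G32A, G37C, C181A, T186C, C249A, C303T, C384T and G478C. The longest identical stretch is 143 nt. The stretches below, from GENCODE release 29 transcripts, show some of the places where a footprint can tell the gene and the copy apart, with the differing bases in capitals. C249A, C303T and C384T lie outside them.
PTGES3 21 to 60: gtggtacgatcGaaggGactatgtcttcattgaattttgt
PTGES3P1 21 to 60: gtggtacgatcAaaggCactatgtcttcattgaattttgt
PTGES3 171 to 210: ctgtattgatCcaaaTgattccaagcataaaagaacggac
PTGES3P1 171 to 210: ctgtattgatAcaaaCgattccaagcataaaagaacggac
PTGES3 461 to 483: aaaaaatgccagatctgGagtaa
PTGES3P1 461 to 483: aaaaaatgccagatctgCagtaa

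Of the 456 windows of 28 nt in PTGES3P1, 300 (65.8%) occur letter for letter in PTGES3. Of the 456 in the PTGES3 coding sequence, 365 (80.0%) occur in some other gene, 149 of the 456 in PTGES3P3. Other members were less or more distinct. No window of the HSPH1 coding sequence occurred in another gene's transcripts, against 233 of 1167 for DNAJA1, 21.3% for DNAJB1, 54.9% for HSP90AB1, 57.9% for HSPA8 and 62.8% for HSP90AA1. For HSPA8 and both HSP90 genes, the rows sharing the most windows were their own pseudogenes. HSPA1A and HSPA1B, neighbours on chromosome 6 at 31815464-31817946 and 31827735-31830255, differ at 4 of 1926 coding positions and share 95.9% of windows.

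Within the HSP70 system, HSPA8, HSPA1B, HSPH1, DNAJB1 and DNAJA1 all stood lower in every CR31B library than in any DMSO library. HSPA8 (ENSG00000109971.14, chr11:123057489-123063230) encodes HSC70, the constitutive HSP70 of the cytosol. It was at 1349, 1066, 1237 and 1282 TPM in DMSO replicates 1 to 4, and at 883, 568, 422 and 625 TPM in CR31B replicates 1 to 4. The 2 groups lay apart, with CR31B replicate 1 highest and replicate 3 lowest among the treated. Its mean went from 1233 ± 121 to 624 ± 193 TPM (SD, n = 4 each), or 50.6% of the DMSO level. The log2 fold change on the log2(TPM + 1) scale was -1.03 (SE 0.20, 95% interval -1.47 to -0.58). HSPA8 exons, pooled over all annotated transcripts as for the other members below, overlap the small nucleolar RNAs SNORD14C and SNORD14D on the same strand. Whether exons of the main transcript do so was not tested.

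HSPA1A (ENSG00000204389.10), one of the pair of stress-inducible HSP70 genes, was listed at 0 in all 8 libraries. The other, HSPA1B (ENSG00000204388.7), was at 89.9, 56.7, 62.0 and 80.8 TPM in DMSO replicates 1 to 4 and at 29.8, 27.5, 18.2 and 25.5 TPM in CR31B. Given how much sequence they share, how reads were split between them is uncertain, and the HSPA1B row may hold reads of either gene. Its exon also overlaps a processed transcript on the same strand, AL671762.1, which shares 47.1% of the HSPA1B windows. The groups did not overlap, and the CR31B mean was 34.9% of the DMSO mean. The log2 fold change was -1.48 (SE 0.19, 95% interval -1.89 to -1.07), below that of all other protein-coding members. HSPA8 exceeded HSPA1B 17.4 ± 2.35-fold in DMSO and 24.5 ± 3.78-fold in CR31B (SD, n = 4 each), from 15.01 to 19.95 in one group and from 20.7 to 29.7 in the other.

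HSPH1 (ENSG00000120694.20, chr13:31134974-31162388), the HSP110 nucleotide exchange factor, was at 76.3, 62.7, 66.3 and 90.3 TPM in DMSO and at 51.5, 40.9, 33.3 and 46.3 TPM in CR31B, in replicate order. Every treated library was below the lowest control, although the closest values were 51.5 and 62.7 TPM. Its log2 fold change was -0.77 (SE 0.16, 95% interval -1.13 to -0.42). No 28-nt window of its coding sequence has an exact copy in another gene, unlike those of the other members.

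Both J-domain cochaperones were lower as well. DNAJB1 (ENSG00000132002.9, chr19:14514770-14529770), the stress-inducible HSP40, was at 46.8, 34.3, 38.2 and 43.4 TPM in DMSO and at 26.3, 21.9, 19.2 and 21.03 TPM in CR31B. DNAJA1 (ENSG00000086061.16, chr9:33025211-33039907), a farnesylated HSP40, was at 267, 248, 253 and 314 TPM in DMSO and at 206, 177, 159 and 176 TPM in CR31B. Neither gene overlapped between groups. The log2 fold changes were -0.85 (SE 0.14, 95% interval -1.15 to -0.55) for DNAJB1 and -0.59 (SE 0.12, 95% interval -0.86 to -0.32) for DNAJA1. The ratio of DNAJA1 to DNAJB1 was 6.70 ± 0.719 in DMSO and 8.15 ± 0.238 in CR31B (SD, n = 4 each), with no overlap. DNAJB1 exons overlap those of TECR and MIR639 on the opposite strand, and whether counting used strand is not given in the sources used here.

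**Figure D1:**
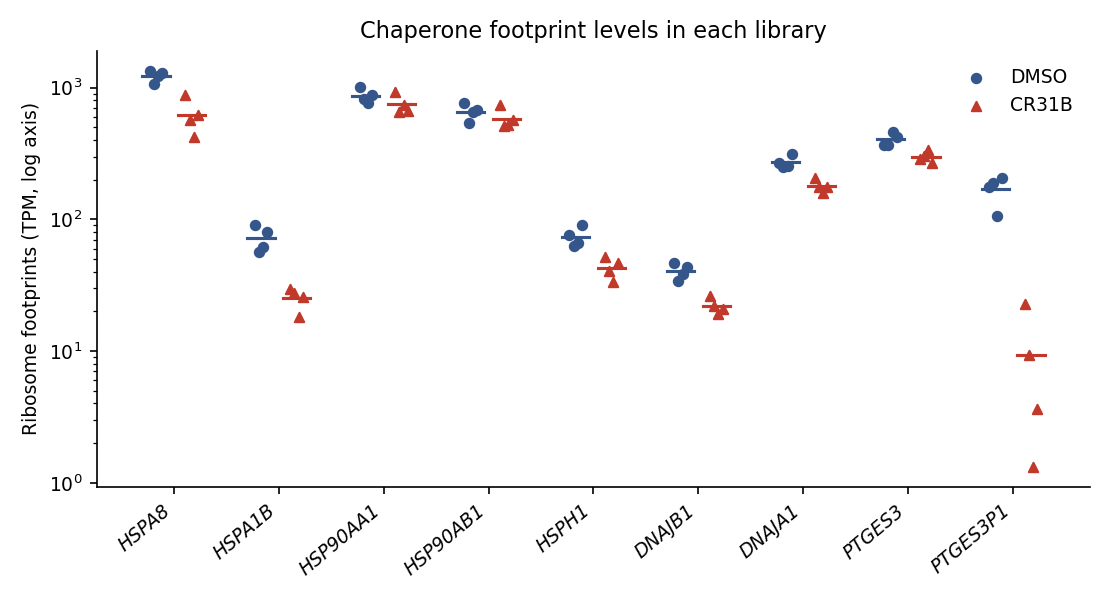
Footprint level (TPM, logarithmic axis) of the 9 members above 0, with one point per library (circles DMSO, triangles CR31B, n = 4 each) and a line at each group mean. HSPA8, HSPA1B, HSPH1, DNAJB1, DNAJA1, PTGES3 and PTGES3P1 show separate groups, whereas HSP90AA1 and HSP90AB1 overlap.

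The HSP90 genes moved less. HSP90AA1 (ENSG00000080824.19, chr14:102080738-102139699), the inducible isoform, was at 1004, 820.3, 765 and 880.3 TPM in DMSO and at 932, 651, 745 and 665 TPM in CR31B. HSP90AB1 (ENSG00000096384.20, chr6:44246166-44253888), the constitutive isoform, was at 769, 538, 649.7 and 677 TPM in DMSO and at 734, 509, 523 and 564 TPM in CR31B. Each was lower in CR31B in 4 of 4 replicate pairs, yet the groups overlapped for both. The log2 fold changes were -0.22 (SE 0.15, 95% interval -0.55 to 0.11) for HSP90AA1 and -0.18 (SE 0.16, 95% interval -0.53 to 0.17) for HSP90AB1. These intervals reach from a decrease close to that of DNAJA1 to a small increase, so neither a decrease nor its absence was shown. HSP90AA1 exons overlap WDR20 on the opposite strand.

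The order of the members differed between groups. In DMSO, HSPA8 was the highest member in 4 of 4 libraries, 1.43 ± 0.141 times HSP90AA1 (SD, n = 4). In CR31B, HSP90AA1 was the highest in 4 of 4, and the ratio of HSPA8 to HSP90AA1 was 0.948, 0.872, 0.566 and 0.941 in replicates 1 to 4. The ratio of HSP90AA1 to HSP90AB1 was 1.33 ± 0.144 in DMSO and 1.29 ± 0.102 in CR31B, with overlapping groups. Below these came PTGES3, DNAJA1 and PTGES3P1 in DMSO, each apart from its neighbours in all libraries, then HSPH1 and HSPA1B, which overlapped, and DNAJB1. In CR31B the ranges of HSP90AA1, HSPA8 and HSP90AB1 overlapped, as did those of HSPA1B, DNAJB1 and PTGES3P1.

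PTGES3 (ENSG00000110958.16), encoding p23, was at 369, 366, 458 and 425 TPM in DMSO and at 286, 305, 339 and 268 TPM in CR31B. The groups lay apart, and the CR31B mean was 74.0% of the DMSO mean. The log2 fold change was -0.43 (SE 0.12, 95% interval -0.71 to -0.16). Its order over the treated libraries was unlike that of HSPA8, since CR31B replicate 3 was the highest for PTGES3 and the lowest for HSPA8.

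The processed copy PTGES3P1 (ENSG00000234518.2) was at 177, 188, 106 and 206 TPM in DMSO and at 22.9, 9.39, 1.32 and 3.61 TPM in CR31B. The groups were far apart, and the CR31B libraries alone ran from 1.32 to 22.9 TPM. The mean in CR31B was 5.49% of that in DMSO, and the log2 fold change was -4.53 (SE 0.58, 95% interval -5.82 to -3.24), the lowest but 1 of the 11778 genes tested. The copy held 32.4%, 34.0%, 18.8% and 32.7% of the summed TPM of gene and copy in DMSO replicates 1 to 4. It held 7.42%, 2.98%, 0.388% and 1.33% in CR31B.

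TPM divides reads by length, and the copy is annotated at 483 nt against 1920 nt for the main PTGES3 transcript, whose untranslated regions carry few footprints. Multiplied back by these lengths, the copy held 5.51% to 11.5% of the pair in DMSO and 0.098% to 1.98% in CR31B. The sum of both, in TPM, was 574 ± 38.6 in DMSO and 309 ± 28.2 in CR31B (SD, n = 4 each), or 53.8%. Weighted by length, the CR31B sum was 67.5% of the DMSO sum. With the TPM of copies added to their parent genes before the fit, the log2 fold change of the PTGES3 row was -0.90, against -0.43 for PTGES3 alone. The summed row passed the threshold where the single row of PTGES3 did not. Since PTGES3P1 was included for its decrease, nothing is read from that pass, and the length-weighted sum was not fitted. How the reads of gene and copy were divided is uncertain, so the 2 rows are best read together.

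**Figure D2:**
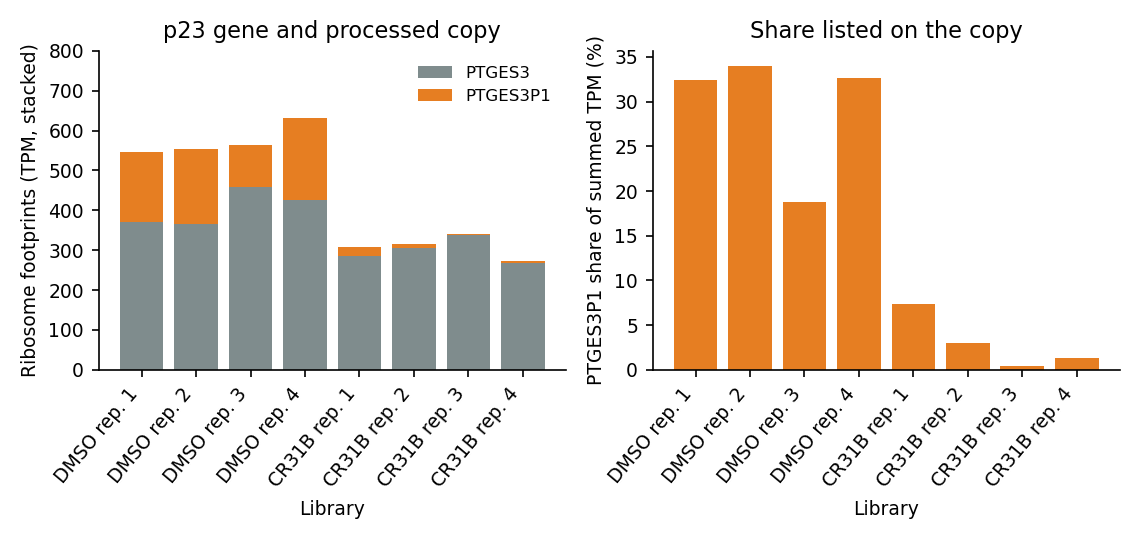
Left, TPM of PTGES3 and PTGES3P1 stacked for each library; right, the percentage of their summed TPM listed on PTGES3P1. The share on the copy was 18.8% to 34.0% in DMSO and 0.388% to 7.42% in CR31B.

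The other pseudogenes of the members carried little. The 17 copies of HSPA8 together held 0.0498% to 0.104% of the sum with HSPA8, and the 6 copies of DNAJA1 held 0.0711% to 0.285%. The 6 of HSP90AB1 held 0.702% to 1.54%, most of it on HSP90AB2P, which was named after its values were seen. Adding copies to their parents left the log2 fold changes of HSPA8, DNAJB1 and DNAJA1 at -1.03, -0.85 and -0.59. That of HSPA1B, -1.48, could not change, because only HSPA1A, listed at 0 in all 8 libraries, was added to it.

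In the fit across all genes (limma with Benjamini-Hochberg adjustment, threshold 0.05), 6 of the 9 tested members fell and none rose. They were HSPA8, HSPA1B, HSPH1, DNAJB1, DNAJA1 and PTGES3P1. Of all 11778 genes tested, 4.02% passed as lower and 7.46% in either direction. This count is a description, since the contrast entered the choice of members. With replicate numbers taken as pairs and fitted as a block, 7 members passed, PTGES3 among them, against 6.56% of all genes passing as lower. All 9 tested members were lower in CR31B in 4 of 4 replicate pairs, as were 18.0% of all genes. All 4 CR31B libraries were below all 4 DMSO libraries in 7 of 9 members and in 8.14% of all genes. The median log2 fold change was -0.77 over the 9 tested members and 0.029 over all genes tested. The HSPH1 call was lost without DMSO replicate 1 or DMSO replicate 4, and that of DNAJA1 without DMSO replicate 4 or CR31B replicate 4.

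**Figure D3:**
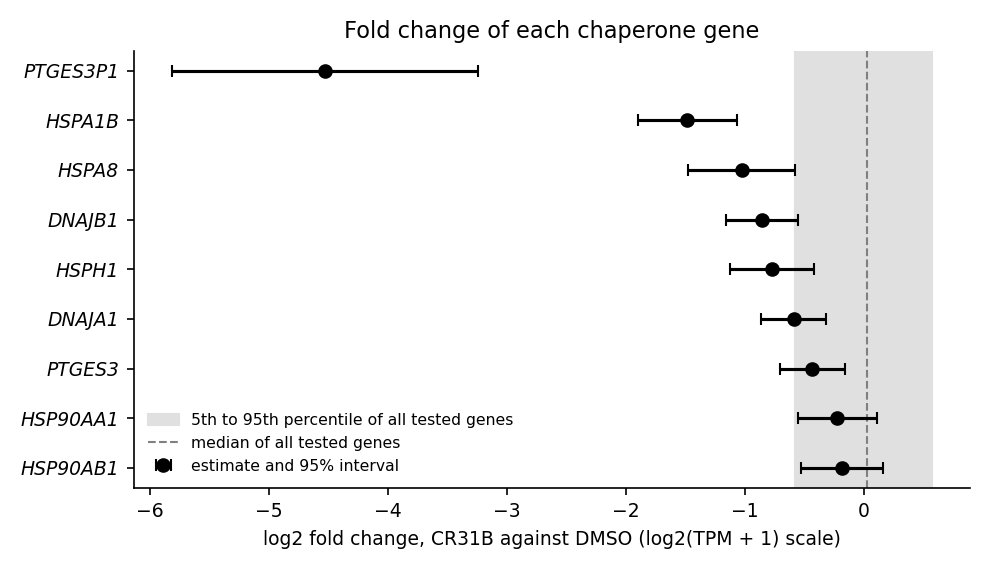
Log2 fold change (CR31B against DMSO, log2(TPM + 1) scale) of the 9 tested members with 95% intervals, over the 5th to 95th percentile of all tested genes (grey, -0.58 to 0.57) and their median (dashed). The intervals of HSP90AA1 and HSP90AB1 include 0, and PTGES3P1 stands apart at -4.53.

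Within the treated group, most members were highest in the same library. CR31B replicate 1 was the highest CR31B library for 8 of 9 members, PTGES3 being the exception, and CR31B replicate 3 was the lowest for 6 of 9. The share of all genes with the same extremes was not computed, so these counts are not read as a trait of the members. Relative to the DMSO mean, HSPA8 stood at -0.48, -1.11, -1.54 and -0.97 (log2) in CR31B replicates 1 to 4, HSPH1 at -0.50, -0.82, -1.11 and -0.65, and HSPA1B at -1.23, -1.34, -1.91 and -1.44. All 3 genes thus ran in nearly the same order over the treated libraries. CR31B replicate 1 also had a protein-coding share of 61.3%, whereas replicates 2 to 4 ranged from 51.8% to 52.3%. The part of this share in the pattern was not tested. Rescaled to protein-coding genes, the log2 fold changes between groups were -0.99 for HSPA8, -1.46 for HSPA1B, -0.74 for HSPH1 and -0.19 for HSP90AA1. These values do not bear on the order within the treated group.

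**Figure D4:**
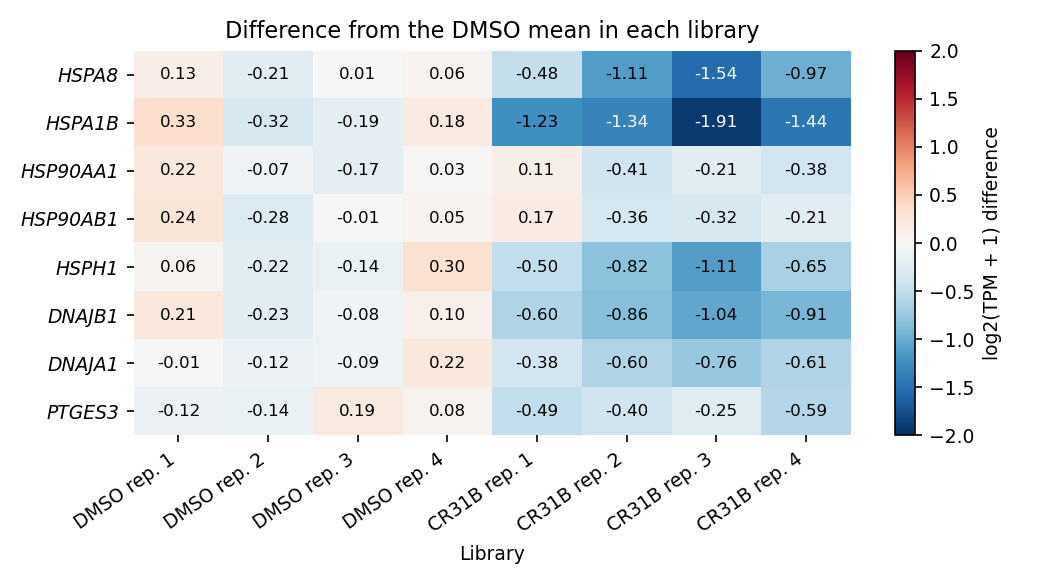
Difference of log2(TPM + 1) from the mean of the 4 DMSO libraries for 8 members (rows) in each library (columns), with values printed in the cells and blue for lower. HSPA1B in CR31B replicate 3 is the lowest cell at -1.91, and HSP90AA1 and HSP90AB1 are above 0 in CR31B replicate 1.

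Over the 8 libraries, the genes outside the group whose log2 levels followed HSPA8 most closely were FAM219A (Pearson r of 0.994), SLC19A1 (0.990), which encodes the reduced folate carrier, and RAMAC (0.989), out of 5604 genes averaging 10 TPM or more. Among the members, r with HSPA8 was 0.963 for DNAJB1, 0.961 for HSPH1, 0.698 for HSP90AA1 and 0.647 for PTGES3. These r are descriptions only: they share the same libraries and include the difference between the groups.

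The promoters of the members were searched for heat-shock elements. The members were chosen as heat-shock chaperones, many of them driven by HSF1, so a share above that of all genes follows in part from the choice. The motif was GAANNTTCNNGAA or its reverse complement TTCNNGAANNTTC, in RefSeq windows (GRCh38.p14) from 250 bases before to 50 after each annotated start. Windows were found for 9 members, and PTGES3P1 had no entry. Of these, 4 held the motif in at least 1 window, HSPA8, HSP90AA1, HSP90AB1 and DNAJA1, or 4 of 14 windows (28.6%) against 0.490% of 35116 windows of all genes. Among the other chaperone genes described below, 5 of 71 windows (7.04%) held it, in HSPA6, DNAJB6, CHORDC1, HSPD1 and SERPINH1. The matches are printed with the GAA and TTC units in capitals, because they show which members carry an exact element and which do not.
HSPA8, chr11:123062348-123062372 (-): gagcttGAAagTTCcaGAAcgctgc
HSPA8, chr11:123062173-123062197 (-): ggccccTTCtgGAAggTTCtaagat
HSP90AA1, chr14:102087114-102087138 (-): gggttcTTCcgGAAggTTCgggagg
HSP90AB1, chr6:44247772-44247796 (+): agcaggTTCtgGAAgaTTCatgggc
HSP90AB1, chr6:44247825-44247849 (+): agattgTTCtgGAAgcTTCtggatt
DNAJA1, chr9:33025270-33025294 (+): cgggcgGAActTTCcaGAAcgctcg

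The members with a match had log2 fold changes of -1.03 (HSPA8), -0.59 (DNAJA1), -0.22 (HSP90AA1) and -0.18 (HSP90AB1). Those with a window but no match had -1.48 (HSPA1B), -0.85 (DNAJB1), -0.77 (HSPH1) and -0.43 (PTGES3), and HSPA1A was not tested. The values of the 2 sets overlapped. The lack of a match says only that these letters are not in the window. In the annotated 5′ leaders, the longest run of purines was from 6 nt in HSPA1B to 12 nt in PTGES3, against a median of 8 nt over 10023 tested genes. The purine share was 67.6% in DNAJB1, reached by 2.39% of genes, in a leader of 71 nt against a median of 208 nt. It was 57.7% in HSPH1 (reached by 17.2% of genes), 57.4% in HSPA8 (18.15%), 54.4% in HSP90AA1 (30.4%) and 51.9% in DNAJA1 (43.8%). All of these shares were above the median share of 50.9%. Below that median were HSPA1B at 49.1%, HSP90AB1 at 45.8% and PTGES3 at 42.9%.

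Outside these members, 63 genes of the chaperone network were taken in 5 lists written from general knowledge of the network, and 53 were tested. Earlier results of these data were known when the lists were written, so their counts are not independent evidence of a direction. Of these, 9 fell and 1 rose (limma adjusted p under 0.05 over all genes tested), with a median log2 fold change of -0.098. All genes gave 4.02% lower and 3.45% higher. In the HSP70 system 2 of 16 tested genes fell. HSPBP1, a nucleotide exchange factor of HSP70, averaged 54.2 ± 6.84 TPM under DMSO and 33.1 ± 2.79 TPM under CR31B (SD, n = 4 each), with a log2 difference of -0.69 (SE 0.12) and a limma adjusted p of 0.00869. The other was DNAJB6, a J-domain protein that holds back aggregation of polyglutamine proteins (-0.64, limma adjusted p of 0.0124), named after its value was seen. ST13 (HIP), the most abundant gene of the list, was at 253 ± 12.8 and 209 ± 22.2 TPM and did not pass (-0.28, limma adjusted p of 0.166).

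Among HSP90 cochaperones other than p23, 2 of 15 fell. NUDC, first known from nuclear migration, went from 93.9 ± 5.17 to 63.1 ± 2.90 TPM (SD, n = 4 each), with a log2 difference of -0.57 (SE 0.097) and a limma adjusted p of 0.00813. AHSA1, the activator of the HSP90 ATPase, fell by 0.46 on the log2 scale (limma adjusted p of 0.0275) and was named after its value was seen. FKBP4, the most abundant of them, stood at 187 ± 29.7 and 166 ± 32.7 TPM with overlapping groups (-0.18, limma adjusted p of 0.570). The list's median was 0.052, with 6 of 15 below 0.

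Of 9 tested genes in the list headed small and mitochondrial heat-shock proteins, which also took in SERPINH1 and HSPB11, 2 fell and 1 rose. HSPE1, the mitochondrial HSP10, went from 705 ± 48.03 to 418 ± 49.9 TPM (SD, n = 4 each), with a log2 difference of -0.76 (SE 0.12) and a limma adjusted p of 0.00626. HSPD1, its HSP60 partner, was at 251 and 260.5 TPM on average and did not pass (log2 fold change 0.040, limma adjusted p of 0.904). The other that fell was HSPB11 (now IFT25, -0.60, limma adjusted p of 0.0406), which was named after its value was seen. DNAJA3, the mitochondrial HSP40, rose from 13.2 ± 2.12 to 19.7 ± 2.62 TPM (SD, n = 4 each; 0.54, SE 0.14, limma adjusted p of 0.0457), a call that held in 7 of 16 alternatives. Each of the libraries CR31B replicates 2 to 4 and DMSO replicates 1 to 4, left out alone, ended the DNAJA3 call, with limma adjusted p from 0.0537 to 0.121.

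None of the 5 tested heat-shock factors and regulators passed. HSF1, the factor that drives heat-shock transcription, was at 6.46 ± 1.34 TPM in DMSO and 6.25 ± 1.70 TPM in CR31B (SD, n = 4 each; log2 fold change -0.054, limma adjusted p of 0.902), named here for its role. HSBP1, the most abundant of the list, was at 117 ± 25.9 and 93.2 ± 31.3 TPM (-0.36, limma adjusted p of 0.389).

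Among 8 paralogs of the endoplasmic reticulum, 3 fell. HSPA5 (BiP), the HSP70 of that compartment, was at 257, 190, 135 and 188 TPM in DMSO and at 126, 94.4, 76.6 and 86.6 TPM in CR31B. The log2 difference was -0.99 (SE 0.20), with a limma adjusted p of 0.0171. Every treated library lay below every control. The call was lost without DMSO replicate 4 (limma adjusted p of 0.0535), without CR31B replicate 4 (0.0532) or with no filter on low values (0.0795). HSP90B1 (GRP94), the HSP90 paralog and the most abundant of the list, went from 230 ± 39.7 to 134 ± 12.1 TPM (SD, n = 4 each; -0.76, SE 0.14, limma adjusted p of 0.0108). DNAJB11, a cochaperone of BiP, changed by -0.70 (limma adjusted p of 0.0112) and was named after its value was seen. The median over the list was -0.31, with 7 of 8 below 0.

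**Figure D5:**
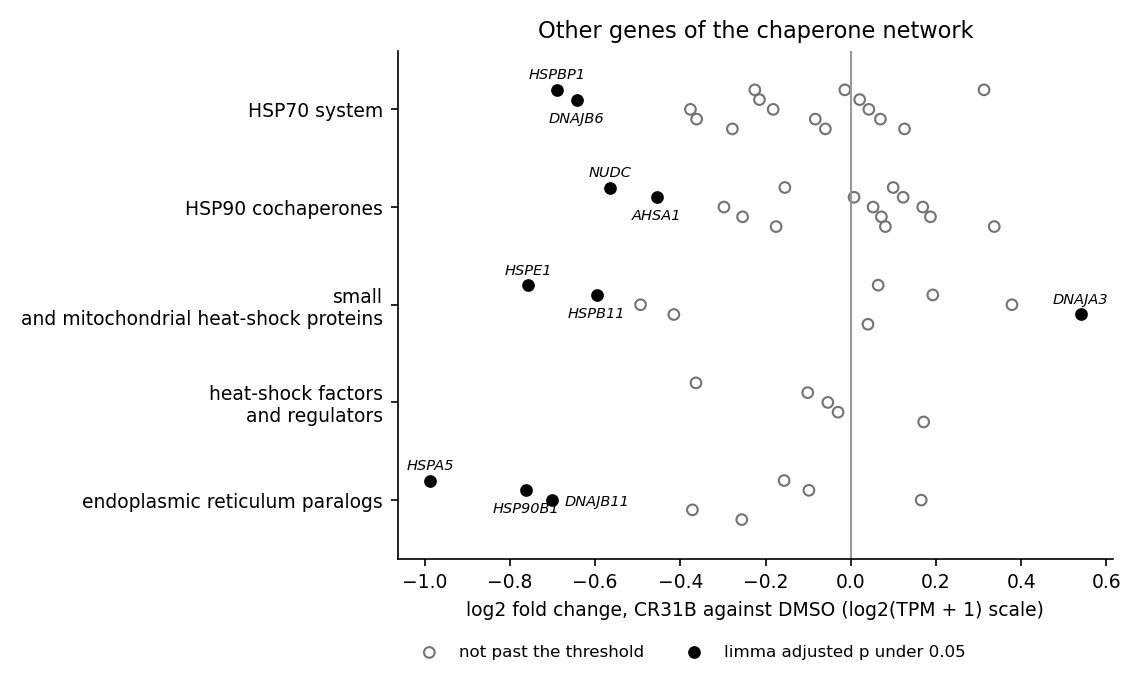
Log2 fold change (CR31B against DMSO, log2(TPM + 1) scale) of 53 tested genes of the chaperone network in 5 lists, one point per gene. Filled, named points had a limma adjusted p under 0.05: 9 were lower and DNAJA3 was higher.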

How the data were processed

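The authors deposited 1 table of TPM values for 60651 genes in 8 libraries of ribosome-protected fragments. Per the submitters' processing notes, cutadapt 3.2, Bowtie2 2.3.4.1, STAR 2.7.1a, RSEM 1.2.28 and DESeq2 1.32.0 were used with hg38/GRCh38. Their roles, the annotation release and the strand setting are not given in the sources used here. Symbols were matched by Ensembl identifier. Coordinates and transcripts came from GENCODE release 29 (GRCh38), promoters from RefSeq.

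The 11778 genes averaging 1 TPM or more were fitted as log2(TPM + 1) with limma 3.58.1 in R 4.3.3 (lmFit, eBayes with trend), treatment as the only term, Benjamini-Hochberg adjustment over all of them. HSPA1A, at 0, was not tested. In 3 simulated tables of 11778 genes for this comparison, 200 genes each were changed and the libraries were not paired. Of genes with a log2 change of 0.585, 23.9% were recovered, as were 74.5% with 1 and 96.3% with 2. Most changes of the smallest size were thus missed in those tables. In the real comparison 879 genes passed, so these shares need not hold for it.

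Members and lists were chosen with earlier results of these data known. From each list the largest significant rise and fall and the most abundant gene were named, with all members, pseudogenes of members at 1 TPM or more, and the 3 genes most correlated with HSPA8.

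Deviations of same-numbered libraries from their group means correlated at 0.333, 0.324, 0.301 and 0.105 over genes (replicates 1 to 4), against -0.206 to 0.134 for libraries of different numbers, a range that holds the value of replicate 4. All 4 exceeded 0.1, so the numbers were taken as pairs in an alternative fit. Other alternatives changed the pseudocount, filter, scaling, trend, copies and libraries. The p-values measure only the spread between these libraries.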

Additional observations from a re-analysis of the deposited data

Results flagged for a closer look

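One value stood apart from its group by Dixon's criterion, a gap to the nearest library above 0.829 of the group's range. For HSPBP1, CR31B replicate 1 gave 37.29 TPM, whereas CR31B replicates 2 to 4 gave 31.6 to 31.78 TPM. This came from 36 groups of 4 examined, of which chance alone gives about 1.8. The same library had the highest share of TPM in protein-coding genes, 61.3%. The HSPBP1 decrease passed under all 16 alternatives, with log2 fold changes from -0.75 to -0.62.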

How the results depend on the processing

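No member's log2 fold change turned sign under any alternative that tested it, and 6 members passed in most; the range was 4 to 7. With the replicate block, 1453 genes passed in place of 879, with 7 members and 12 of the 53 other pathway genes in place of 6 and 10. Among the members and the genes named from each list for the largest change or abundance, the block changed only the call of PTGES3. In the list of small and mitochondrial heat-shock proteins, 3 genes were lower and 2 higher with the block, against 2 and 1 without it. With no filter on low values, which tests more genes, 442 genes passed, and the member calls of HSPA8 and HSPH1 were lost. Leaving out 1 library gave 404 (without DMSO replicate 4) to 785 genes, 4 to 6 members and 6 to 11 other pathway genes. The counts were 516 without CR31B replicate 4, 502 without DMSO replicate 1 and 514 without DMSO replicate 2; other pathway genes were 6 without CR31B replicate 4 or DMSO replicate 4. Summing copies, planned with a pattern that missed HSP90 pseudogenes and repeated with them after seeing the data, gave PTGES3 -0.90 both times and moved no other member beyond its spread; 6 members passed, with the summed PTGES3 row in place of PTGES3P1. The PTGES3 row thus passed in 3 of 18 alternatives, the block and these sums, which hold PTGES3P1, included for its decrease. No count model was run, since TPM keeps no depth, and low values such as PTGES3P1 in CR31B rest on an unknown number of reads.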

Other observations

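The share listed on a processed copy also differed for a mitochondrial chaperone. HSPE1P2 (ENSG00000258645.2), a pseudogene of the HSP10 gene HSPE1 noticed after the values were seen, was at 19.4, 148, 290.4 and 167 TPM in DMSO replicates 1 to 4. In CR31B replicates 1 to 4 it was at 6.95, 31.2, 0 and 0.74 TPM, so the groups overlapped. Its share of the sum with HSPE1 ran from 2.84% to 30.3% in DMSO and from 0% to 6.36% in CR31B. PTGES3P3, another processed copy of PTGES3, was at 0.73 to 1.32 TPM in DMSO and 0.07 to 0.35 TPM in CR31B. HSP90AB2P was at 6.78 to 7.82 TPM in DMSO and 4.31 to 6.77 TPM in CR31B. How reads were divided between these copies and their parents is uncertain.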
